A study of Mus musculus with 9 samples.

Results

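The 48 genes described here encode the enzymes that add acetyl groups to histones, those that remove them, and the proteins that read acetylated chromatin or move nucleosomes. They were chosen by name, as rows whose gene symbol was on a fixed list, and all 48 were found among the 18657 genes of the deposited expression table. All of them also passed the filter on low values and stood among the 14437 genes tested. RNA was sequenced from renal cortex of male mice in 4 groups. VHLΔPT mice carried floxed Vhl alleles and a Cre transgene driven by the Sglt2 promoter, Tg(Slc5a2-cre)1Tauc, which acts in the first segments of the proximal tubule, and received vehicle (2 libraries). The con/STZ mice were Cre-negative littermates with floxed Vhl that received streptozotocin (STZ), a toxin of insulin-producing cells that causes diabetes (2 libraries). VHLΔPT/STZ mice had both the deletion and the toxin (2 libraries), and con mice were Cre-negative littermates given citrate buffer (3 libraries). All 4 groups carried the floxed Vhl alleles on a mixed C57BL/6 and FVB background. STZ was injected at 100 mg/kg on 2 consecutive days at 12 weeks of age, and kidneys were taken after 10 weeks. Each library pooled the cortex RNA of 2 mice, so con stood for 6 mice and every other group for 4 mice, and the p-values measure the spread between pools.

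Acetylation of lysines on histone tails loosens chromatin and is read by bromodomains, which recruit the transcription machinery. Ep300 and Crebbp are the transcriptional coactivators to which hypoxia-inducible factor (HIF) binds, and VHL is the ubiquitin ligase subunit that marks HIF for destruction when oxygen is present. Classical deacetylases use zinc to remove the acetyl group, sirtuins use NAD, and remodelers of the ISWI and SWI/SNF families slide or evict nucleosomes with energy from ATP.

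Since VHL controls HIF, the bases just upstream of the gene starts were searched for the core of a HIF binding site, ACGTG or GCGTG on either strand. Of the 48 genes, 40 had a RefSeq window of 250 bases upstream (GRCm38.p6). The core was present in 19 of these 40 windows (47.5%), against 54.8% of the 10853 windows of all genes tested. The E-box CACGTG, which contains the core, was present in 3 windows (7.5%), against 8.3% of all genes tested. The windows were chosen by unlike rules. For the 48 genes the RefSeq start nearest the outermost start in the GENCODE annotation was taken, and for all genes the most upstream RefSeq start. Among the 14 windows of genes that were higher in con/STZ, 5 held a core (35.7%), those of Arid5b, Atxn7, Sirt1, Ncoa1 and Brpf3, and those of Ep300, Crebbp, Kat6b, Hdac4, Brd2, Baz2a, Baz2b, Arid1a and Arid4b held none. The windows of 5 genes that recur in the results and whose window held at most 15 exon bases are printed 5′ to 3′ on the strand of the gene, ending at the base before the start, with every core and E-box in capitals. Arid5b had the largest change of the 48 genes (chr10:68278727-68278976, minus strand). Atxn7 was among the genes higher in VHLΔPT (chr14:14012241-14012490, plus strand), Sirt1 was the sirtuin that was higher in con/STZ (chr10:63339036-63339285, minus strand), Kat6b was an acetyltransferase higher in con/STZ (chr14:21499520-21499769, plus strand), and Hdac2 was the deacetylase that was lower in con/STZ (chr10:36974294-36974543, plus strand).
Arid5b: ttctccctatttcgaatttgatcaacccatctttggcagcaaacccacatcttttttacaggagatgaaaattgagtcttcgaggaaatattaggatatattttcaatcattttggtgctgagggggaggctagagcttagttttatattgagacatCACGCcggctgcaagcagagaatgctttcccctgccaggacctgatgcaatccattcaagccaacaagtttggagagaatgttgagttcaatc
Atxn7: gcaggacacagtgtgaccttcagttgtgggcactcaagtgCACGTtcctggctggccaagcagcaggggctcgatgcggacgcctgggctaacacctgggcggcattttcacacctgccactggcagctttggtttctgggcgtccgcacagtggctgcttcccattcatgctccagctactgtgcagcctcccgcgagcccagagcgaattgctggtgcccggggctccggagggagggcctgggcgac
Sirt1: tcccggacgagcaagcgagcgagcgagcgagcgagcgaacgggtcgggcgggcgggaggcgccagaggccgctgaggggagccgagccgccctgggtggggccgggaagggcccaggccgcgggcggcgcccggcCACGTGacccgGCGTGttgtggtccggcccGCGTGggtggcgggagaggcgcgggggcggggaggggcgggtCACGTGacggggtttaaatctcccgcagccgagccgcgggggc
Kat6b: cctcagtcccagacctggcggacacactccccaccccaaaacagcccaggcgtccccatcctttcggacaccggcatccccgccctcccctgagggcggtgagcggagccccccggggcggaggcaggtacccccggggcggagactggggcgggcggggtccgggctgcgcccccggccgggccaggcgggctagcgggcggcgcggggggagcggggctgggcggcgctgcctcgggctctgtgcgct
Hdac2: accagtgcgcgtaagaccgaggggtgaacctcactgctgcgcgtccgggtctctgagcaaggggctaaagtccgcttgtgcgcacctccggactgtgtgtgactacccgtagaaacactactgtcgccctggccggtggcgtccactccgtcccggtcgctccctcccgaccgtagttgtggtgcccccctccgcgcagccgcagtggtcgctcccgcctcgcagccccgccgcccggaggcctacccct
The Arid5b window held 1 core, 93 bases before the start, and the Atxn7 window held 1 core, 210 bases before the start. The Sirt1 window held 6 cores, counting both strands, of which 4 lay in its 2 E-boxes, and the Kat6b and Hdac2 windows held none. The RefSeq starts of Atxn7, Sirt1 and Kat6b lay 51051, 42669 and 18336 bases from the outermost start in the GENCODE annotation. Those of Baz2b and Hdac4 lay 84099 and 15358 bases from it. Other promoters of these genes were not searched.

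The deposited values are normalised read counts that the authors had quantile normalised, so the 9 libraries summed to nearly the same total (21951722 to 21952234) and the sequencing depth behind each value is unknown. Vhl itself was at 434 and 469.8 in VHLΔPT, 501 and 527 in con/STZ and 516 and 516.5 in VHLΔPT/STZ, against 522 to 555 in con, in RNA of the whole cortex and over all exons of the gene. In con/STZ library 2 the female-specific transcript Xist was at 3205, against 0 to 6.22 in the other 8 libraries, although all mice were stated to be male. The Y-linked transcript Ddx3y was at 498 in the same library, against 479.5 to 1005 in the other 8. The sex of the mice in this pool was not tested. Defining markers of the proximal tubule were far above 0 in every library, with summed levels of 249828 to 289481 in VHLΔPT, 263076 to 304341 in con/STZ and 248049 to 284874 in VHLΔPT/STZ, against 218710 to 240146 in con. In con/STZ 5 of 6 proximal tubule markers were higher, and 3 of 4 macrophage markers were lower, with a sum of 1677 to 2039 in con/STZ against 2944 to 3148 in con. The 3 thick ascending limb markers summed to 105404 to 118364 in con/STZ, against 62699 to 71468 in con, and 1 of them was higher. Sums in con/STZ were also above con for the distal convoluted tubule (17852 to 22165 against 10307 to 11447), with 1 marker higher. So were those of the collecting duct (18774 to 20404 against 8222 to 14612) and podocytes (7268 to 8220 against 5553 to 5765), each with 1 marker higher. Endothelial sums lay above con, and those of T and B cells and of fibroblasts below it. The fat markers spanned 30.3 to 1570 within con. None of these markers was at 0, their part in the results was not tested, and in cortex RNA fewer cells of a type and less RNA per cell cannot be told apart. Long transcripts were relatively high in some libraries: the correlation of a gene's deviation from its mean with log10 of its exon length was 0.212 and 0.188 in VHLΔPT, 0.257 and 0.269 in con/STZ, and 0.184 and -0.0572 in VHLΔPT/STZ, against -0.26, -0.19 and -0.455 in con.

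Levels spanned a wide range among the 48 genes. Per kilobase of exon, Brd2, a bromodomain reader that stays on acetylated chromatin, had the highest level in con, with a mean of 488 ± 18.6 normalised counts per kilobase (SD, n = 3). Sirt2 (409 ± 9.21), Smarca2 (402 ± 46.9), Sirt3 (379 ± 37.2) and Hdac2 (347 ± 19.7) came next in con on the same scale. The levels of Sirt2, Smarca2 and Sirt3 lay within their spread of each other, as did those of Sirt3 and Hdac2. The lowest was Hdac9, a class IIa deacetylase best known from muscle and the immune system, with 0.846 ± 0.26 per kilobase in con and between 8.33 and 16.7 normalised counts in all 9 libraries. Kat6b, Hdac4, Arid4b and Arid5b were also low, between 17.8 and 21.2 normalised counts per kilobase in con. Exons of a gene on the opposite strand covered 22.4% of the exon bases of Hdac4, 17.9% of Hdac11, 12.7% of Sirt3 and 12.1% of Kat5, and the sources used here do not state whether strand was used in counting, so the values of these genes may include reads of their neighbours.

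**Figure D1:**
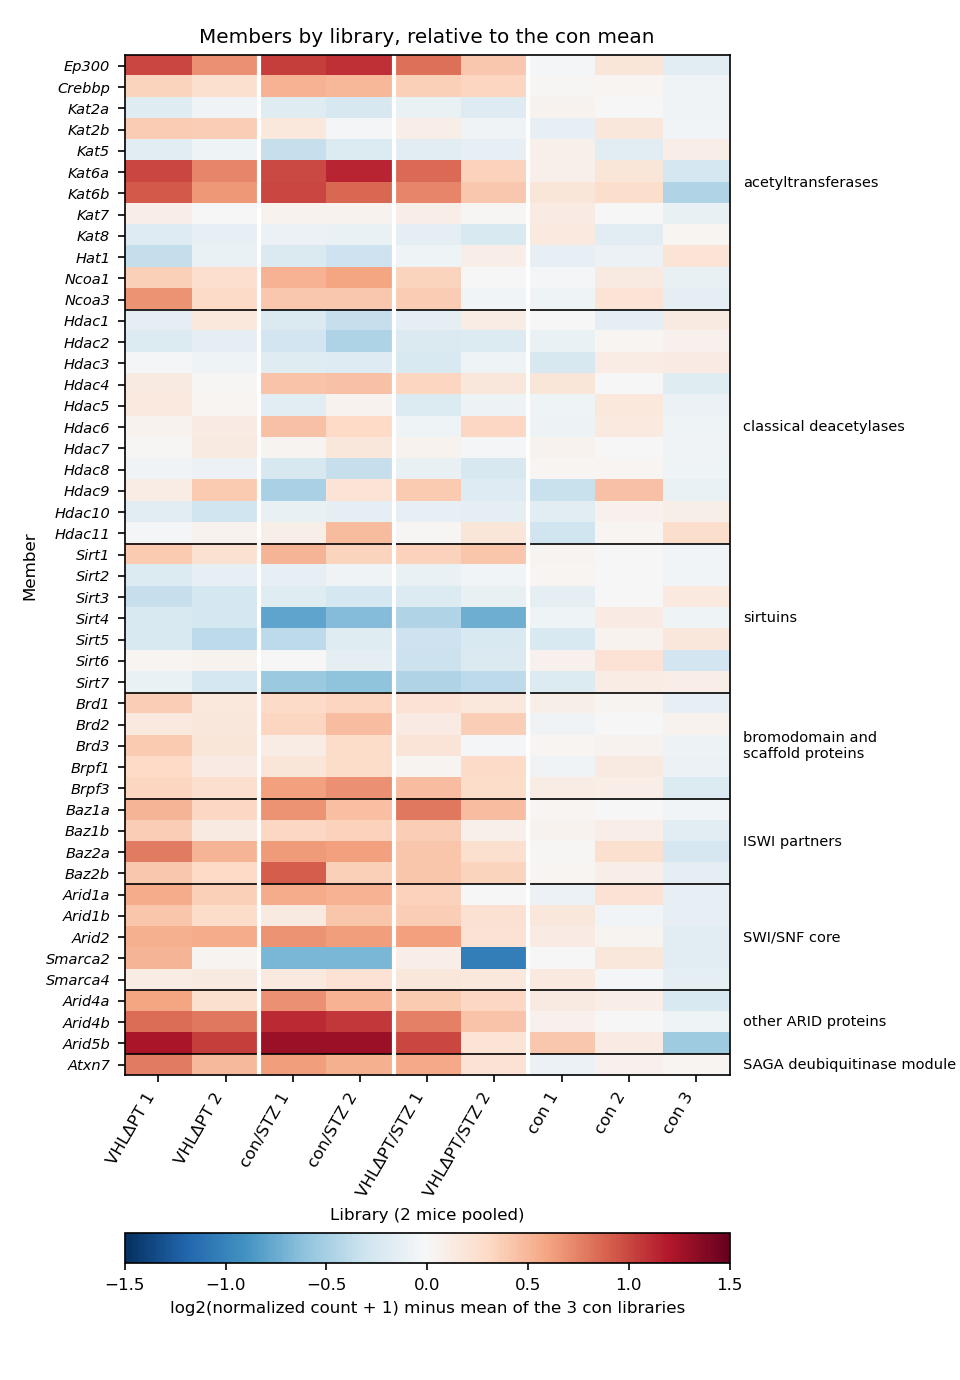
Difference of each of the 48 genes (rows, grouped by role) from its mean over the 3 con libraries, as log2 of normalised count + 1, in each of the 9 libraries (columns, by group). Red marks higher and blue lower values, and Ep300 (change of 0.84 in VHLΔPT and 1.06 in con/STZ), Kat6a, Arid4b and Arid5b stand out as red in VHLΔPT and con/STZ.

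The first comparison asked what deletion of Vhl in the proximal tubule did without diabetes. In VHLΔPT cortices 4 of the 48 genes were higher than in con at an adjusted p under 0.05 and none was lower, where 2.43% of all 14437 genes tested were higher and 0.658% were lower (limma on log2 of normalised count + 1, Benjamini-Hochberg adjustment over all genes tested). At an unadjusted p under 0.05, 20 of the 48 were higher and 1 was lower, where 2016 of all 14437 genes tested were higher and 1912 were lower. Every VHLΔPT library lay above every con library for 23 genes and below for 5, against 22.6% and 24.8% of all genes tested. The median log2 change over the 48 genes was 0.23, against -0.02 over all genes tested. All changes below are log2 differences on the scale of normalised count + 1, with their standard errors.

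Ep300, the coactivator and acetyltransferase p300 (ENSMUSG00000055024), was at 1645 and 1316 in VHLΔPT, against 811, 932 and 733 in con. Its lowest VHLΔPT library thus exceeded its highest con library, and the change was 0.84 ± 0.16 (adjusted p = 0.0375). Kat6a, the acetyltransferase MOZ that keeps blood stem cells, was at 1488 and 1233 in VHLΔPT, against 783, 837 and 619 in con, a change of 0.87 ± 0.18 (adjusted p = 0.0474). Arid4b, a DNA-binding subunit of the Sin3 deacetylase complex, was at 630.1 and 609.7 in VHLΔPT, against 369, 353 and 335 in con. This change was 0.81 ± 0.12 (adjusted p = 0.0329), and the libraries of each group lay close together. Atxn7, which anchors the deubiquitinase module of the SAGA coactivator complex, was at 1133 and 931 in VHLΔPT, against 621, 693 and 673 in con, a change of 0.63 ± 0.13 (adjusted p = 0.0474). The groups did not overlap for any of these 4 genes.

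These 4 calls lay close to the threshold. Leaving out VHLΔPT library 1 or 2, con/STZ library 1 or 2, or con library 1 or 3 in turn ended the call of all 4, with limma finding 0 of the 48 genes higher and 8 to 20 at an unadjusted p under 0.05. Under each of these 6 omissions 0 of all genes tested passed as well. Over the 9 omissions the change lay between 0.68 and 1.00 for Ep300, 0.74 and 1.01 for Kat6a, 0.78 and 0.85 for Arid4b and 0.49 and 0.77 for Atxn7. Without con library 2 the call of Atxn7 was lost, and Baz2a passed with a change of 0.77 (adjusted p = 0.0366). With VHLΔPT/STZ library 1 or 2 left out, 7 genes passed in VHLΔPT, namely these 4 with Arid5b, Arid2 and Baz2a, while 765 and 780 of all genes tested passed in either direction. The highest adjusted p over the 9 omissions was 0.262 for Ep300, 0.274 for Kat6a, 0.233 for Arid4b and 0.278 for Atxn7.

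Several genes lay just outside the threshold in VHLΔPT. Baz2a, the TIP5 subunit of the nucleolar remodeling complex that silences ribosomal RNA genes, had a change of 0.65 ± 0.15 (adjusted p = 0.0517), and Arid2, a subunit of the PBAF form of SWI/SNF, one of 0.54 ± 0.13 (adjusted p = 0.0590). Arid5b, a DNA-binding cofactor of the histone demethylase PHF2, was at 482 and 423 in VHLΔPT, against 274, 225 and 142 in con, a change of 1.13 ± 0.29 (adjusted p = 0.0650). The groups did not overlap for Arid5b, but con library 3 was far below the other con libraries. None of the 11 classical deacetylases and none of the 7 sirtuins passed in VHLΔPT by limma, where 2.43% of all genes tested were higher and 0.658% lower. The largest values among them were -0.31 ± 0.15 for Sirt5 and 0.31 ± 0.11 for Sirt1. The 3 genes that were lower in con/STZ had values of -0.25 ± 0.13 (Sirt4), -0.18 ± 0.12 (Sirt7) and -0.17 ± 0.09 (Hdac2) in VHLΔPT. Sirt4 was at 409 and 399 in VHLΔPT, below the con libraries (459, 524 and 461), while Sirt7 at 1183 and 1056 overlapped with con (1096, 1372 and 1357).

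**Figure D2:**
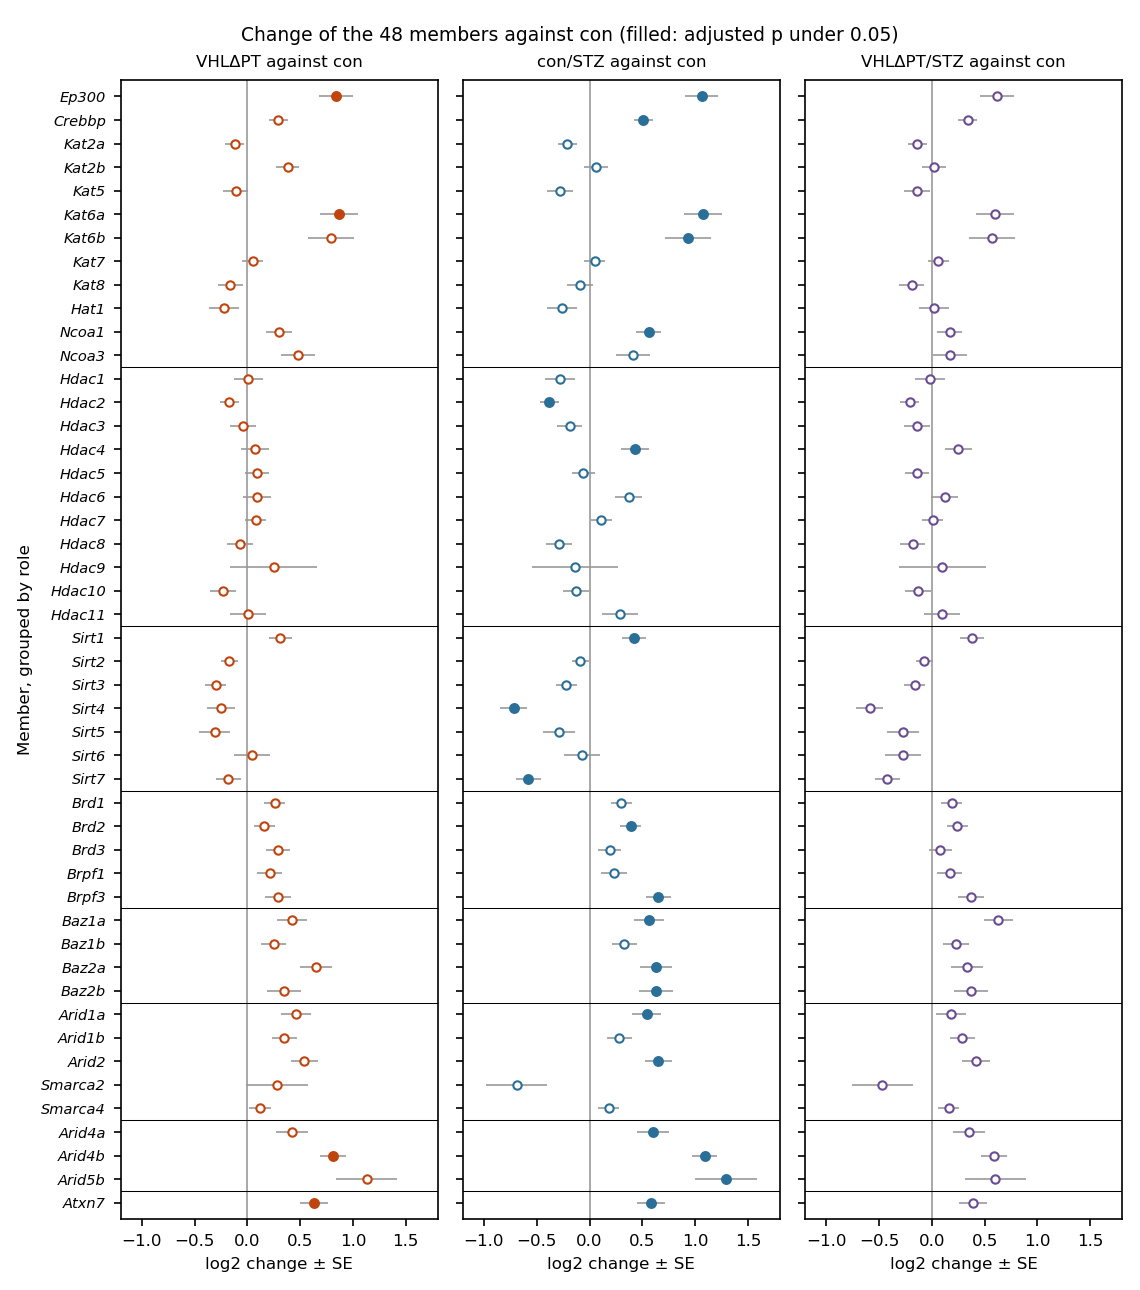
Log2 change of each of the 48 genes (rows, by role) in VHLΔPT, con/STZ and VHLΔPT/STZ against con, with bars of 1 standard error and filled points for an adjusted p under 0.05 (limma). Filled points number 4 in VHLΔPT, 21 in con/STZ and 0 in VHLΔPT/STZ, and the 3 comparisons share the same con libraries.

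The second comparison asked what diabetes did in mice with intact Vhl. In con/STZ cortices 18 of the 48 genes were higher than in con and 3 were lower, where 14.1% of all genes tested were higher and 14.1% were lower (limma). At an unadjusted p under 0.05, 22 were higher and 7 were lower, where 2968 of all 14437 genes tested were higher and 3120 were lower. Every con/STZ library lay above every con library for 24 genes and below for 11, against 28.0% and 30.0% of all genes tested. The median change of the 48 genes was 0.25, against -0.02 over all genes tested. Without con/STZ library 2, which held Xist, 5 genes were higher (Ep300, Crebbp, Kat6a, Arid4b and Baz2b) and 1 was lower (Sirt4). Without con/STZ library 1, 5 were higher (Brpf3 in place of Baz2b) and 1 was lower (Hdac2). Over all genes tested 1293 passed without con/STZ library 2 and 1241 without library 1, in place of 4082 with both. Ep300, Crebbp, Kat6a and Arid4b kept their call under each of the 9 omissions. With both con/STZ libraries present, the call of Hdac4 was lost without VHLΔPT library 1 or 2 or con library 2 or 3, that of Arid1a without con library 1 or 3 and that of Baz2b without con library 3. The direction of all 21 genes was the same under every omission, and without con/STZ library 2 the changes of the 5 largest risers were 1.29 for Arid5b (adjusted p = 0.0777), 1.12 for Arid4b (adjusted p = 0.0245), 0.99 for Kat6a (adjusted p = 0.0463), 1.03 for Ep300 (adjusted p = 0.0339) and 1.00 for Kat6b (adjusted p = 0.0696).

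Of the 12 acetyltransferases 5 were higher in con/STZ (41.7%) and none was lower, where 14.1% of all genes tested were higher and 14.1% lower. Ep300 was at 1679.5 and 1754 in con/STZ, against 811, 932 and 733 in con, so that both con/STZ libraries lay far above all con libraries. The change was 1.06 ± 0.16 (adjusted p = 0.00357). Kat6a was at 1468 and 1641 in con/STZ, against 783, 837 and 619 in con, a change of 1.07 ± 0.18 (adjusted p = 0.00521). Its paralog Kat6b, also called MORF, was at 585 and 533 in con/STZ, against 332, 353 and 213 in con, a change of 0.93 ± 0.22 (adjusted p = 0.0154). For both MYST acetyltransferases con library 3 was the lowest and the groups did not overlap. Crebbp, the close relative of Ep300, was at 893 and 879.9 in con/STZ, against 633, 635 and 603 in con, a change of 0.51 ± 0.09 (adjusted p = 0.00521) that became 0.07 (adjusted p = 0.605) once the trend with exon length was removed. Ncoa1, the steroid receptor coactivator SRC-1, had a change of 0.56 ± 0.12 (adjusted p = 0.0120). The other 7 acetyltransferases did not pass. Among them Kat2a and Kat2b, the catalytic subunits of SAGA and ATAC, had changes of -0.21 ± 0.09 and 0.06 ± 0.11. Kat5, the catalytic subunit of NuA4, had -0.28 ± 0.12, and Hat1, which acetylates newly made histone H4, had -0.26 ± 0.14. Ncoa3, the coactivator SRC-3, had 0.41 ± 0.16, and the MYST enzymes Kat7 (HBO1) and Kat8 (MOF) had 0.05 ± 0.10 and -0.09 ± 0.12.

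Of the 11 classical deacetylases 1 was higher in con/STZ and 1 was lower (9.09% each), no larger a share than the 14.1% of all genes tested in each direction. Hdac2, a class I enzyme of the Sin3, NuRD and CoREST complexes (ENSMUSG00000019777), was at 1268 and 1128 in con/STZ, against 1454, 1588 and 1620.3 in con. Both con/STZ libraries lay below all con libraries, and the change was -0.38 ± 0.09 (adjusted p = 0.0174). Hdac4, a class IIa deacetylase that shuttles between nucleus and cytoplasm, was at 435 and 438 in con/STZ, against 368, 323 and 285 in con. Its change of 0.43 ± 0.13 (adjusted p = 0.0396) turned to -0.07 (adjusted p = 0.700) once the trend with exon length was removed, and Hdac4 is also the gene most covered by exons of the opposite strand. Hdac6, the cytoplasmic deacetylase of tubulin, had a change of 0.37 ± 0.13 (adjusted p = 0.0587), and Hdac1, the partner of Hdac2, one of -0.28 ± 0.14 (adjusted p = 0.156). The other 7 classical deacetylases did not pass and lay between -0.29 for Hdac8 and 0.29 for Hdac11.

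Among the 7 sirtuins 1 was higher in con/STZ (14.3%) and 2 were lower (28.6%), where 14.1% of all genes tested were higher and 14.1% lower. Sirt1, a nuclear deacetylase of histones and transcription factors (ENSMUSG00000020063), was at 569 and 503 in con/STZ, against 409.6, 398 and 388 in con, a change of 0.42 ± 0.11 (adjusted p = 0.0195). Sirt4, a mitochondrial sirtuin that acts on metabolic enzymes and not on histones, was at 278 and 307 in con/STZ, against 459, 524 and 461 in con. It had the largest fall of the 48 genes, -0.72 ± 0.13 (adjusted p = 0.00591). Sirt7, a nucleolar sirtuin that acts on histone H3, was at 862 and 837 in con/STZ, against 1096, 1372 and 1357 in con, a change of -0.58 ± 0.12 (adjusted p = 0.00939). Neither Sirt4 nor Sirt7 overlapped between the groups. The other mitochondrial sirtuins did not pass, with changes of -0.22 ± 0.10 for Sirt3 and -0.29 ± 0.15 for Sirt5, and neither did the tubulin deacetylase Sirt2 (-0.09 ± 0.08) or the chromatin-bound Sirt6 (-0.07 ± 0.17).

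No reader or remodeler among the 48 was lower in con/STZ at the threshold, where 14.1% of all genes tested were lower and 14.1% higher. Of the 5 bromodomain and scaffold proteins Brd2 had a change of 0.39 ± 0.10 (adjusted p = 0.0194) and Brpf3, a scaffold of MYST acetyltransferases, one of 0.65 ± 0.12 (adjusted p = 0.00661). Brd1, Brd3 and Brpf1 did not pass, with changes of 0.30 ± 0.10, 0.19 ± 0.11 and 0.23 ± 0.12. Of the 4 ISWI partners 3 were higher, with changes of 0.56 ± 0.14 for Baz1a (ACF1), 0.63 ± 0.15 for Baz2a and 0.63 ± 0.16 for Baz2b, while Baz1b did not pass (0.33 ± 0.12). Of the 5 core SWI/SNF genes Arid1a and Arid2, which set the BAF and PBAF forms of the complex apart, had changes of 0.54 ± 0.14 and 0.65 ± 0.13 and passed. Smarca2, the ATPase BRM, was at 3543 in both con/STZ libraries, against 5702, 6414 and 5075 in con. The groups did not overlap, yet the change of -0.69 ± 0.29 did not pass (adjusted p = 0.103). The libraries of VHLΔPT (8142 and 5892) and of VHLΔPT/STZ (6104 and 2772), which enter the same estimate of the spread, lay far apart for this gene. Its alternative ATPase Smarca4, or BRG1, had a change of 0.18 ± 0.10 (adjusted p = 0.194), and Arid1b, the paralog of Arid1a, one of 0.28 ± 0.12 (adjusted p = 0.125).

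All 3 remaining ARID genes were higher in con/STZ, where 14.1% of all genes tested were. Arid5b was at 505 and 502 in con/STZ, against 274, 225 and 142 in con, and its change of 1.29 ± 0.29 (adjusted p = 0.0141) was the largest of the 48 genes. Arid4b was at 766 and 733 in con/STZ, against 369, 353 and 335 in con, a change of 1.09 ± 0.12 (adjusted p = 0.00183), which was the smallest adjusted p of the 48 genes. Its paralog Arid4a, which also binds the Sin3 complex, had a change of 0.60 ± 0.15 (adjusted p = 0.0200). Atxn7 was at 1019.7 and 955 in con/STZ, against 621, 693 and 673 in con, a change of 0.58 ± 0.13 (adjusted p = 0.0148).

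**Figure D3:**
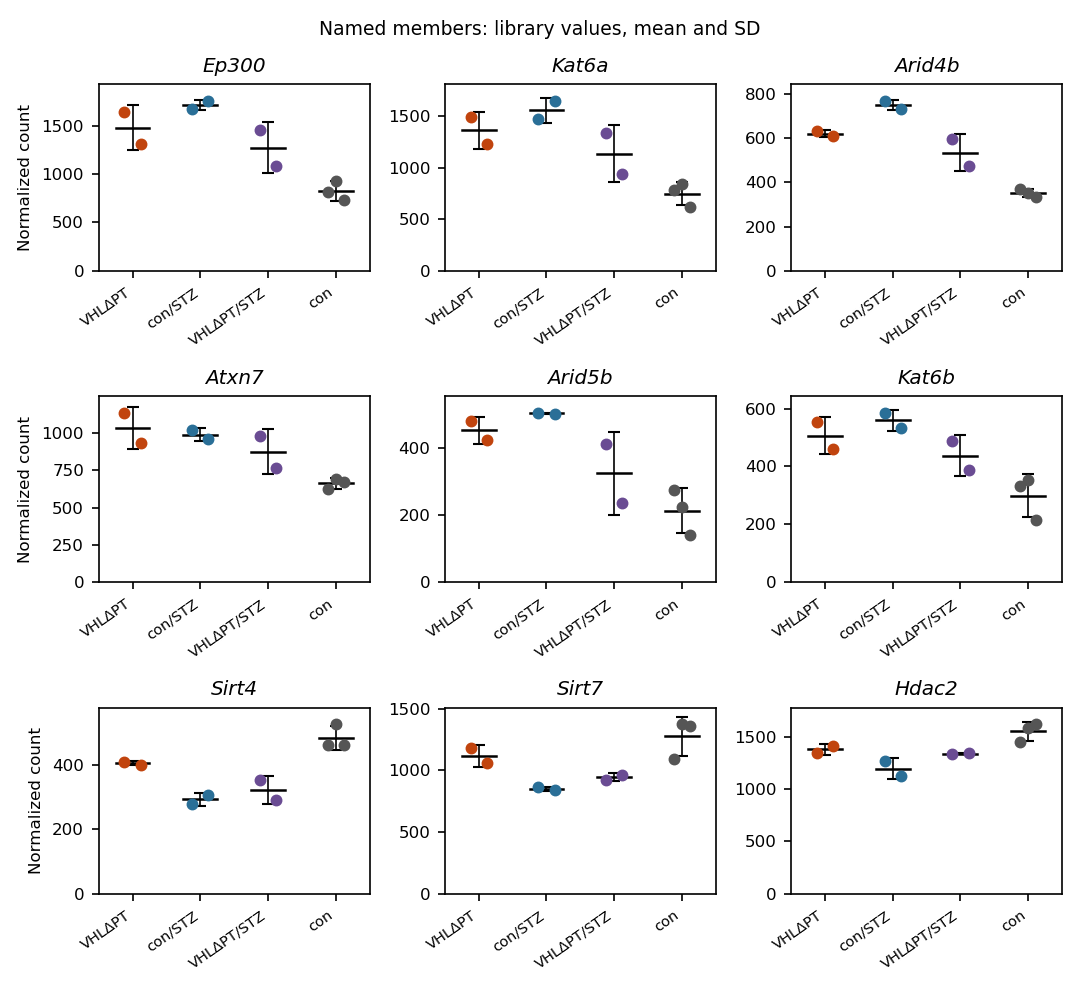
Normalised counts (vertical axes, each starting at 0) of 9 genes in each library, by group, with points for libraries, a horizontal line for the group mean and error bars of 1 SD. Ep300, Kat6a, Arid4b, Atxn7, Arid5b and Kat6b were higher in both con/STZ libraries than in the 3 con libraries, and Sirt4, Sirt7 and Hdac2 were lower.

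The third comparison asked how diabetes and loss of Vhl together differed from con. In VHLΔPT/STZ cortices 0 of the 48 genes passed in either direction by limma, where 0.935% of all genes tested were higher and 0.464% were lower. At an unadjusted p under 0.05, 14 of the 48 were higher and 3 were lower, where 1817 of all 14437 genes tested were higher and 1763 were lower. Every VHLΔPT/STZ library lay above every con library for 17 genes and below for 6, against 19.0% and 20.4% of all genes tested, and the median change was 0.14, against -0.01 over all genes tested. Without VHLΔPT/STZ library 1, the change was -1.04 for Smarca2 and -0.73 for Sirt4, from the 1 library left in that group.

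The smallest adjusted p was that of Arid4b, which was at 594 and 475 in VHLΔPT/STZ, against 369, 353 and 335 in con, a change of 0.59 ± 0.12 (adjusted p = 0.0507). Sirt4 was next, at 352 and 289.6 in VHLΔPT/STZ, against 459, 524 and 461 in con, a change of -0.59 ± 0.13 (adjusted p = 0.0542). Neither gene overlapped between the groups. Baz1a had the largest rise, at 460.2 and 367 in VHLΔPT/STZ, against 271, 267 and 258 in con, a change of 0.63 ± 0.14 (adjusted p = 0.0556). Ep300 was at 1459.7 and 1089 in VHLΔPT/STZ (0.62 ± 0.16, adjusted p = 0.0711) and Kat6a at 1334 and 938 (0.60 ± 0.18, adjusted p = 0.100). For both, library 1 was nearer to the con/STZ libraries and library 2 nearer to con. Arid5b was at 412 and 237, so that VHLΔPT/STZ library 2 lay within the con range of 142 to 274 while library 1 lay above it. Sirt7, at 925 and 966 in VHLΔPT/STZ, and Hdac2, at 1335 and 1343, were below all con libraries, with changes of -0.42 ± 0.12 (adjusted p = 0.0832) and -0.21 ± 0.09 (adjusted p = 0.189). Smarca2 had a wide gap, with 6104 in VHLΔPT/STZ library 1 and 2772 in library 2.

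Against the groups with a single lesion, none of the 48 genes passed either. In VHLΔPT/STZ against con/STZ limma found 0 genes higher and 0 lower, where 0.00693% of all genes tested were higher and 0% were lower. At an unadjusted p under 0.05, 511 of all 14437 genes tested were lower and 446 higher, and 5 of the 48 were lower and 0 higher. These 5 were Ep300 (-0.44), Kat6a (-0.47), Ncoa1 (-0.39), Arid1a (-0.36) and Arid4b (-0.50), each with an adjusted p of 0.744. In VHLΔPT/STZ against VHLΔPT limma likewise found 0 genes in either direction, where 0.00693% of all genes tested were higher and 0% were lower. At an unadjusted p under 0.05 the values of 3 genes were lower there: Kat2b (-0.35), Sirt4 (-0.34) and Smarca2 (-0.75). By the same unadjusted p 849 of all 14437 genes tested were lower, so the 3 were near the share of all genes. The smallest adjusted p in that comparison was 0.388. Without VHLΔPT/STZ library 1, the change of Smarca2 there was -1.32, from the 1 library left in that group.

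Whether the effect of STZ differed by genotype was tested as an interaction, the STZ change in Vhl-deleted mice minus the STZ change in con mice. It was below 0 for 3 of the 48 genes at an adjusted p under 0.05 and above 0 for none, where 1.41% of all genes tested were below 0 and 0.305% were above. At an unadjusted p under 0.05, 18 were below 0 and 3 above, where 1902 of all 14437 genes tested were below 0 and 1844 above. The median was -0.29, against 0.03 over all genes tested. Ep300 had an STZ change of -0.22 ± 0.17 in Vhl-deleted mice and of 1.06 ± 0.16 in con mice, a difference of -1.29 ± 0.23 (adjusted p = 0.0396). Kat6a had STZ changes of -0.28 ± 0.20 in Vhl-deleted mice and 1.07 ± 0.18 in con mice, a difference of -1.34 ± 0.27 (adjusted p = 0.0476). For Arid4b the STZ changes were -0.22 ± 0.13 in Vhl-deleted mice and 1.09 ± 0.12 in con mice, a difference of -1.31 ± 0.17 (adjusted p = 0.0304). For each of these 3 genes every library of VHLΔPT, con/STZ and VHLΔPT/STZ lay above every con library. The value of Arid5b was the most negative, -1.81 ± 0.43, but did not pass (adjusted p = 0.0594), and those of Atxn7 (-0.82 ± 0.20) and Kat6b (-1.14 ± 0.32) did not pass either. The 3 calls were kept without con library 2, when 5 of the 48 genes passed (Arid1a and Baz2a with these 3). Over all genes tested 448 passed in either direction under that omission. The 3 calls were also kept without VHLΔPT/STZ library 1, which left 1 library in that group. Leaving out VHLΔPT/STZ library 2, VHLΔPT library 1 or 2, con/STZ library 1 or 2, or con library 1 or 3 ended all 3 calls, when limma found 0 genes and 12 to 18 were below 0 at an unadjusted p under 0.05.

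The study drew 6 of the 48 genes, Ep300, Kat6a, Arid4b, Arid5b, Baz2a and Atxn7, into a network of histone modification genes. Of these 4 were higher in VHLΔPT, 6 in con/STZ and 0 in VHLΔPT/STZ by limma, and 3 had an interaction below 0. They were picked from these same libraries, so their counts are not independent evidence of a direction.

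Changes were more positive in genes with longer transcripts. The 4 genes higher in VHLΔPT had a median of 11726.5 exon bases (7978 to 16965). The 18 genes higher in con/STZ had a median of 10395 bases (5331 to 17604), the 27 that did not pass there 5817 bases, and the 3 that were lower 4474 bases (2398 to 5148). The median over all genes tested was 4307 bases. Over the 48 genes Pearson's r of the change with log10 exon length was 0.681 in VHLΔPT, 0.62 in con/STZ and 0.625 in VHLΔPT/STZ, given as a description of genes measured in the same libraries. Over the 14420 genes tested with a length it was 0.465 in VHLΔPT, 0.379 in con/STZ and 0.298 in VHLΔPT/STZ.

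The same was seen when genes were split at 8000 exon bases. In con/STZ 13 of the 19 longer genes were higher and 0 were lower by limma, where 38.8% of all genes of that length were higher and 2.94% were lower. Of the 29 shorter genes 5 were higher and 3 were lower, where 8.98% and 16.5% of all shorter genes were. In VHLΔPT 3 of the 19 longer genes were higher, where 10.1% of all genes of that length were, and 1 of the 29 shorter ones, where 0.804% were.

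With the length trend of each library subtracted before the fit, 0 of the 48 genes passed in VHLΔPT by limma, with a median change of -0.01. Before adjustment 9 of the 48 were above and 4 below con at p under 0.05, where 1150 and 1446 of the 14420 genes with a length were. In that fit 0% of all genes with a length passed in either direction. The interaction likewise had 0 genes, where 0.00693% of all genes were above and 0.00693% below 0 at an adjusted p under 0.05. Before adjustment 4 of the 48 were above and 10 below 0 at p under 0.05. By the same unadjusted p 1349 of the 14420 genes with a length were above and 1107 below 0. In con/STZ 8 genes were then higher and 4 were lower, where 8.50% of all genes were higher and 10.8% were lower, so the 4 lower genes were at no larger share than all genes. Those higher were Ep300 (0.60), Kat6a (0.79), Ncoa1 (0.31), Sirt1 (0.35), Brpf3 (0.40), Arid4a (0.51), Arid4b (0.56) and Arid5b (0.97). Those lower were Hdac2 (-0.39), Sirt4 (-0.52), Sirt7 (-0.64) and Smarca2, whose change became -1.15 (adjusted p = 0.0152). What part of the changes came with transcript length as such was not tested.

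**Figure D4:**
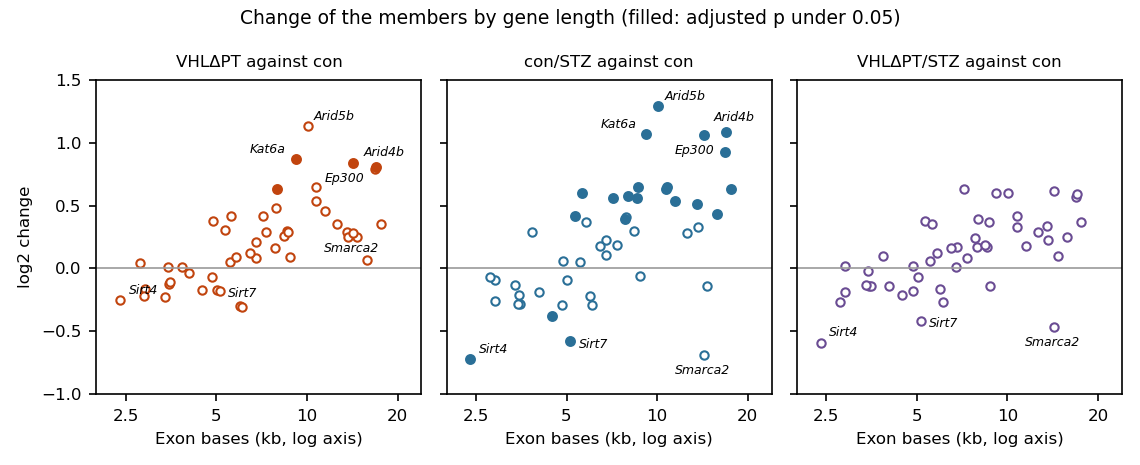
Log2 change against con of the 48 genes (vertical axis) against their exon length in kilobases (horizontal log axis) in VHLΔPT, con/STZ and VHLΔPT/STZ, with filled points for an adjusted p under 0.05 (limma). Longer genes had higher values in all 3 panels, with Pearson's r of 0.681 in VHLΔPT, 0.62 in con/STZ and 0.625 in VHLΔPT/STZ.

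Paralogs were also compared within each library, where a scale factor common to the library drops out. The ratio of the normalised count of Ep300 to that of Crebbp, whose exon lengths are similar (14273 and 13540 bases), was 2.09 and 1.79 in VHLΔPT, 1.88 and 1.99 in con/STZ and 1.83 and 1.40 in VHLΔPT/STZ, against 1.28, 1.47 and 1.22 in con. Ep300 thus stood higher relative to Crebbp in every VHLΔPT and con/STZ library than in any con library, and VHLΔPT/STZ overlapped with con. The ratio of Kat6a to Kat6b overlapped with con in all 3 groups, lying between 2.36 and 3.08 over the 9 libraries. The ratio of Arid4a to its longer paralog Arid4b was 0.916 and 0.741 in VHLΔPT, 0.805 and 0.747 in con/STZ and 0.843 and 0.995 in VHLΔPT/STZ, against 1.13, 1.16 and 0.971 in con.

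The ATPases Smarca2 and Smarca4 take each other's place in SWI/SNF complexes. The ratio of Smarca2 to Smarca4 was 1.78 and 1.69 in con/STZ, against 2.84, 3.58 and 3.09 in con, without overlap. In VHLΔPT it was 4.18 and 2.96 and in VHLΔPT/STZ 2.99 and 1.38, both overlapping with con. The ratios of Brd2 to Brd3 and of Ncoa1 to Ncoa3 were higher in both con/STZ libraries than in all con libraries, and those of Kat2a to Kat2b and of Brpf1 to Brpf3 were lower. Kat2a to Kat2b was also lower in both VHLΔPT libraries than in all con libraries. The ratios of Hdac1 to Hdac2 and of Arid1a to Arid1b overlapped with con in all 3 groups. Baz1a to Baz1b was above all con libraries in VHLΔPT and VHLΔPT/STZ, and Baz2a to Baz2b in VHLΔPT. The differences between paralogs were not tested.

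**Figure D5:**
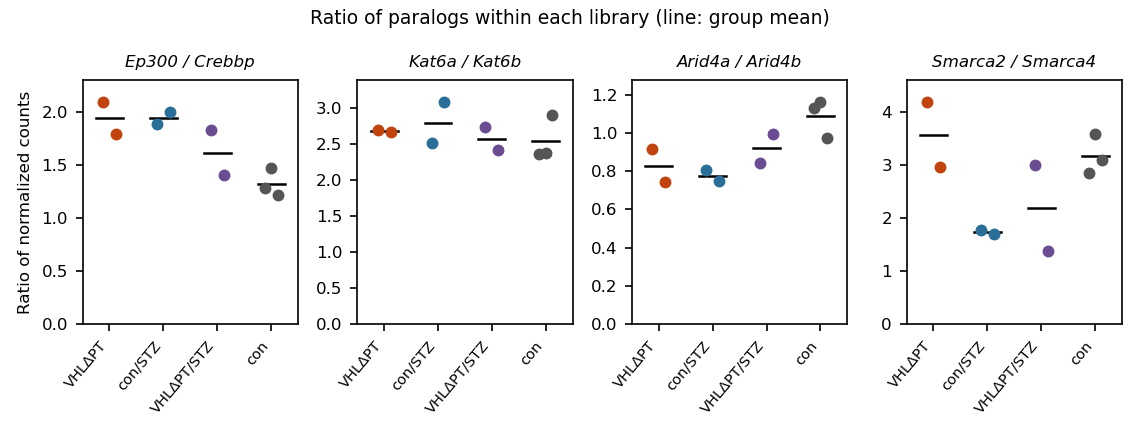
Ratio of normalised counts (vertical axes from 0) of 4 pairs of paralogs in each library, by group, with points for libraries and lines for group means. The ratio of Ep300 to Crebbp was 1.79 to 2.09 in the VHLΔPT and con/STZ libraries and 1.22 to 1.47 in con, and that of Smarca2 to Smarca4 was 1.69 and 1.78 in con/STZ and 2.84 to 3.58 in con.

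Other genes of the same machinery were counted by complex. Of 17 bromodomain proteins tested outside the 48, 9 were higher in con/STZ (52.9%) and 6 in VHLΔPT (35.3%), and none was lower in either, with the largest change in the ATPase Atad2b (1.55 in con/STZ and 1.33 in VHLΔPT). As given above, 14.1% of all genes were higher and 14.1% lower in con/STZ, and 2.43% were higher in VHLΔPT. The 17 genes have a median of 10955 exon bases. With the length trend removed 6 were higher in con/STZ and 0 in VHLΔPT by limma (before adjustment 5 above and 1 below con there at p under 0.05), and their median change in con/STZ was 0.07 in place of 0.48. Of 25 remodelers of the ISWI, CHD and INO80 families and their partners 12 were higher (48%) and 3 lower (12%) in con/STZ and 3 were higher in VHLΔPT (12%), led by Atrx, a histone H3.3 depositing ATPase (1.39 in con/STZ and 1.12 in VHLΔPT). These 25 genes have a median of 12851 exon bases. With the length trend removed 2 were higher and 2 lower in con/STZ, and their median change there was 0.02 in place of 0.43. In VHLΔPT 0 of the 25 then passed by limma, with 3 above and 1 below con at an unadjusted p under 0.05. By the same unadjusted p 1150 of the 14420 genes with a length were above con in VHLΔPT and 1446 below. In VHLΔPT/STZ against con 3 of these 25 (12%) and 1 of the 17 bromodomain genes (5.88%) were higher, where 0.935% of all genes were. The interaction was below 0 for 3 of the 25 (12%) and for 5 of the 17 (29.4%), where 1.41% of all genes were. With the length trend removed 0 of either list passed in these comparisons. Over all genes 1 was then higher in VHLΔPT/STZ and 1 was below 0 in the interaction.

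Partners of the acetyltransferases and deacetylases were counted in the same way and set beside the 14.1% of all genes in each direction in con/STZ. Of 23 genes listed with SAGA and ATAC, not all of them subunits, 2 were higher (8.7%) and 3 lower (13%) in con/STZ. Of 15 NuA4 subunits 1 was higher (6.67%) and 3 lower (20%), and of 31 subunits of deacetylase complexes 3 were higher (9.68%) and 6 lower (19.4%). With counts this small these shares lay near those of all genes. The largest changes of these lists in con/STZ were 0.78 for Atxn7l3b, 0.63 for the NuA4 ATPase Ep400 and -1.15 for the Sin3 subunit Sap30. Among 14 partners of MOZ, HBO1, MSL and NSL 4 were higher (28.6%) and 1 was lower (7.14%) in con/STZ, where 1 was higher and 1 lower with the length trend removed, and Jade1 was higher in VHLΔPT (0.67). The largest value of that list in con/STZ, 1.02 for Ing4, did not pass (adjusted p = 0.0554). Of 19 further SWI/SNF subunits 2 were higher and 2 lower in con/STZ (10.5% each), with the largest change in Smarcd3 (0.72), and Pbrm1 was higher in VHLΔPT (0.74). Among 17 genes that supply acetyl-CoA and NAD 3 were higher and 3 lower in con/STZ (17.6% each, near the share of all genes), including Acss1, the mitochondrial acetyl-CoA synthetase (1.13), Nampt, the rate-limiting enzyme of NAD salvage (0.54), and Qprt, which makes NAD precursors from tryptophan (-0.72).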

How the data were processed

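Cortex RNA was prepared as strand-specific poly(A) libraries and sequenced. Per the labels and the study's methods the reads were trimmed with Trim Galore 0.4, aligned to GRCm38 with STAR 2.5.2b, and reads per gene were counted with featureCounts 1.5.2. The authors deposited the quantile normalised read counts (a signal, 14.9% of the values whole numbers), which hold no sequencing depth, so depth and counting intervals cannot be given. Columns of the authors' own fold changes and FDR values were not used. Dates that stood in place of 24 gene names were turned back into names.

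Genes whose mean across the 9 libraries reached 10 were tested with limma 3.58.1 in R 4.3.3 on log2(value + 1) with a mean-variance trend, all 4 groups sharing 1 estimate of the spread (5 residual degrees of freedom), and p-values were adjusted by Benjamini-Hochberg over all 14437 genes in each comparison. The study's own count test could not be refitted to these values. A gene passed at an adjusted p under 0.05. A fold change on this scale understates the change of low genes. Exon lengths were merged GENCODE exon bases, and motifs were searched in RefSeq windows. Values in every library are given for genes that passed in VHLΔPT or VHLΔPT/STZ against con or in the interaction and for the 5 largest rises and falls that passed in con/STZ. Values of Crebbp, Sirt1, Hdac4, Baz1a and Smarca2 were added after the values were seen. The genes and lists were chosen with earlier results of these data known. Alternatives changed the pseudocount, the filter, the scaling, the variance model, library weights, the replicate block, the length trend, the groups in the fit, the call and the libraries, and 1 subset of 6 libraries was chosen after seeing the data.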

Additional observations from a re-analysis of the deposited data

Results flagged for a closer look

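The effect of STZ differed between Vhl-deleted and con mice for 3 of the 48 genes by a test of the difference itself (limma, interaction term, adjusted over all genes tested). Over all genes tested 1.41% had a difference below 0 and 0.305% one above 0. Each of the 3 calls was kept under only 2 of the 9 omissions of a single library, and none was kept without the mean-variance trend. The difference, the STZ change in Vhl-deleted mice minus that in con mice on the log2 scale, was -1.29 for Ep300 (adjusted p = 0.0396), -1.34 for Kat6a (adjusted p = 0.0476) and -1.31 for Arid4b (adjusted p = 0.0304). All 3 genes have long transcripts, of 9180 to 16965 exon bases, and with the length trend of each library removed none of the 3 passed. The part of transcript length in these values was not tested.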

How the results depend on the processing

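Of the comparisons of single genes under other settings, 821 kept their direction and side of the threshold, 165 lost significance, 11 gained it and 2 changed sign, both for Hdac4 in con/STZ, at -0.07 with the length trend removed and -0.10 with the replicate number as a block as well. The 4 genes higher in VHLΔPT became 0 without the mean-variance trend, with the length trend removed, with only the groups compared in the fit, and in the subset of con 1, con 2, VHLΔPT 1, VHLΔPT 2, con/STZ 1 and VHLΔPT/STZ 1, and 8 with library weights. Over single omissions they ranged from 0 to 7. The calls over all genes moved with them, with 446 in the reported fit, 1363 with library weights and 0 wherever 0 of the 48 passed. In con/STZ they were 4082 in the reported fit, 2781 with length removed and 1049 in the subset, and for the interaction 248 in the reported fit, 580 with library weights and 0 to 2 without the trend, with length removed and in the subset. The 18 genes higher in con/STZ became 8 with length removed, 10 at a fold over 1.5 and 6 in the subset, and ranged from 5 to 19 over omissions. The 3 genes lower became 1 at a fold over 1.5 and 1 in the subset, and ranged from 1 to 4. The calls over all genes at a fold over 1.5 are not given here. In VHLΔPT/STZ against con, a minimum mean of 50 gave 2 genes higher (Arid4b and Baz1a) and 1 lower (Sirt4), when 431 of all genes passed in either direction. Rescaling by the median of ratios gave 1 higher (Arid4b), when 279 of all genes passed. The reported fit had 202. Under omission of a con or con/STZ library 0 of the 48 passed in VHLΔPT/STZ against con or against VHLΔPT. For these comparisons calls are not given where an omission left 1 library in VHLΔPT/STZ or VHLΔPT. The 3 genes with an interaction below 0 became 0 without the trend, with length removed and in the subset, and 5 with library weights, and ranged from 0 to 8. Apart from the loss that fewer libraries or groups bring by construction, the cause of these changes was not tested.

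Replicate numbers in the titles were not taken as pairs, since the titles do not say that they mark pairs. Of the 12 correlations among equally numbered libraries of different groups 4 exceeded 0.1 (range -0.109 to 0.273). They were taken on deviations from the group mean, which mirror each other in a group of 2 libraries. Some of the values therefore repeat, and the correlations cannot decide whether the libraries were paired. With the replicate number as a block, 0 genes were higher in VHLΔPT, 17 were higher and 2 lower in con/STZ, and 0 had an interaction below 0. Over all genes tested the calls were then 0, 3001 and 0 in either direction. Only con has a library numbered 3, so with this block con library 3 no longer entered these comparisons. With the block and the length trend removed together the counts were 0 in VHLΔPT, 5 higher and 2 lower in con/STZ, and 0 for the interaction. Those over all genes with a length were 0, 1865 and 0 in either direction.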
